A study of Mus musculus with 8 samples.

Results

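Day 5 of neural differentiation was compared with day 0 in the 2 control lines of the series, WT and shCtrl, with 1 library per line and day. These 4 libraries, of 8 in the series, came from 46C, a mouse embryonic stem (ES) cell line labelled C57BL/6 in which the neural gene Sox1 is tagged with a fluorescent reporter. WT was 46C with no further change named, and shCtrl was 46C carrying a control hairpin RNA. The other 4 libraries, from a line labelled LincNDIME_KO and a line with a hairpin against Mef2c (shMef2c), enter the account at a single point. Day 0 cells grew on irradiated mouse embryonic fibroblasts, called feeders, in fetal bovine serum with the cytokine LIF. Day 5 cells had been dissociated, re-aggregated in low-adhesion dishes and grown with serum replacement, and were labelled ES-derived neural progenitor cells. The series title names NDIME and Mef2c together with neural differentiation and autism, and the control lines are those with neither perturbation. A bulk library cannot tell fewer cells of a type from less RNA per cell.

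Levels were RPKM at day 0 and FPKM at day 5, both scaling reads by transcript length and library size, from tables that the authors normalised separately. For each of 17363 genes found in both tables, of 21069 features at day 5 and 19011 at day 0, the log2 ratio of day 5 to day 0 was taken in each line after adding 1 to both values, and was centred on the median of all genes, which was 0 in both lines before centring. With 1 added, a scarce gene shows a smaller ratio than its levels alone would give. A gene was called higher or lower where its ratio reached 2-fold (1 on the log2 scale) in the same direction in both lines, and "rose" and "fell" are used of such genes alone. Pairs of values are given in the order WT, shCtrl. With 1 library per line and day and 2 separately made tables, no test was run and no p-value is given.

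ES cells in serum and LIF hold a naive pluripotent state kept by a network of transcription factors around Oct4 (Pou5f1), Sox2 and Nanog. Without LIF and serum they pass through a state like the early epiblast, and, where Nodal and BMP signals are low, become neuroepithelium, the dividing layer from which neurons and glia form. That epithelium takes a position along the head-to-tail axis, read in Otx2, Irx and Hox genes, and along the back-to-belly axis, read in genes that answer to Sonic hedgehog and BMP.

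The control libraries held 20769916 to 26834802 estimated reads, of which 92.5% to 99.0% fell on the shared genes. Between the days, 1564 genes were higher in both lines (9.01% of the genes compared) and 1415 were lower in both (8.15%). No gene passed 2-fold in opposite directions. Counts of called genes in each list below are to be read beside the shares of 9.01% and 8.15%. For all 1564 both values of day 5 lay above both values of day 0, and for all 1415 below. The calling rule largely fixes this, since an overlap would need the lines to differ by 2-fold or more within a day. WT alone passed 2-fold for 1960 genes upwards and 1833 downwards, and shCtrl alone for 2175 and 1823. Of the 1831 genes past 2-fold in a single line, 1772 pointed the same way in the other. Among 12110 genes with a mean of 1 or more, the ratios of the lines differed by a median of 0.24 on the log2 scale, and 95% of genes differed by less than 0.87. Across genes, the ratios of the lines had a Pearson correlation of 0.924, a description in which genes are not independent replicates and each line contributes 1 library a day.

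**Figure D1:**
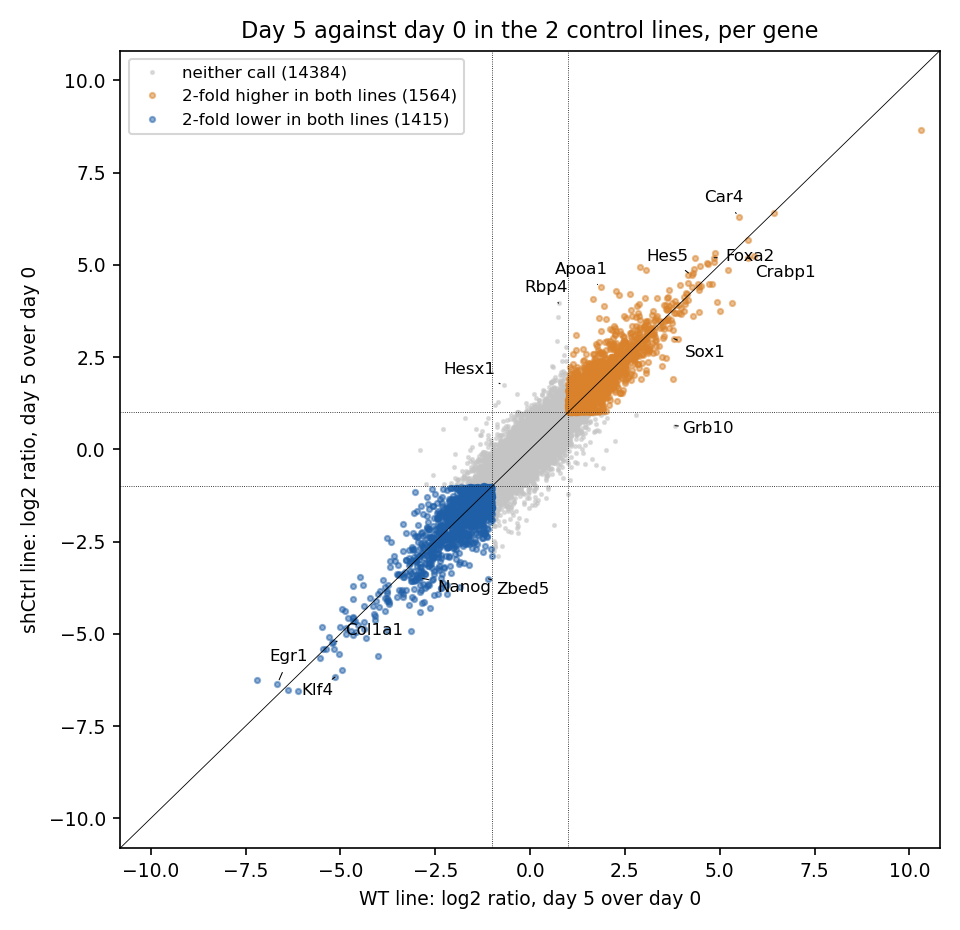
Each point is 1 of 17363 genes, with its centred log2 ratio of day 5 over day 0 in the WT line (x axis) and in the shCtrl line (y axis). Orange points (1564) lie past 2-fold upwards in both lines and blue points (1415) past 2-fold downwards in both, the dotted lines mark 2-fold, and the upper left and lower right corners beyond those lines hold no point.

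The markers of the labelled cell types moved as the labels say. The 4 ES markers (Pou5f1, Nanog, Zfp42, Esrrb) summed to 1490 and 1630 RPKM at day 0 and to 275 and 199 FPKM at day 5, and the 4 neural progenitor markers (Sox1, Pax6, Nes, Hes5) to 14 and 10.4 RPKM and then 96.8 and 102 FPKM. ES markers were thus lower at day 5 but present, with Pou5f1 at 182 and 131 FPKM. The 8 feeder markers (Col1a1, Col1a2, Col3a1, Thy1, Twist2, Prrx1, Lum, Dcn) summed to 196 and 201 RPKM at day 0 and to 14.8 and 19.2 FPKM at day 5, with 7 of the 8 called lower and none at 0 in any library, so these markers moved with the day.

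**Figure D2:**
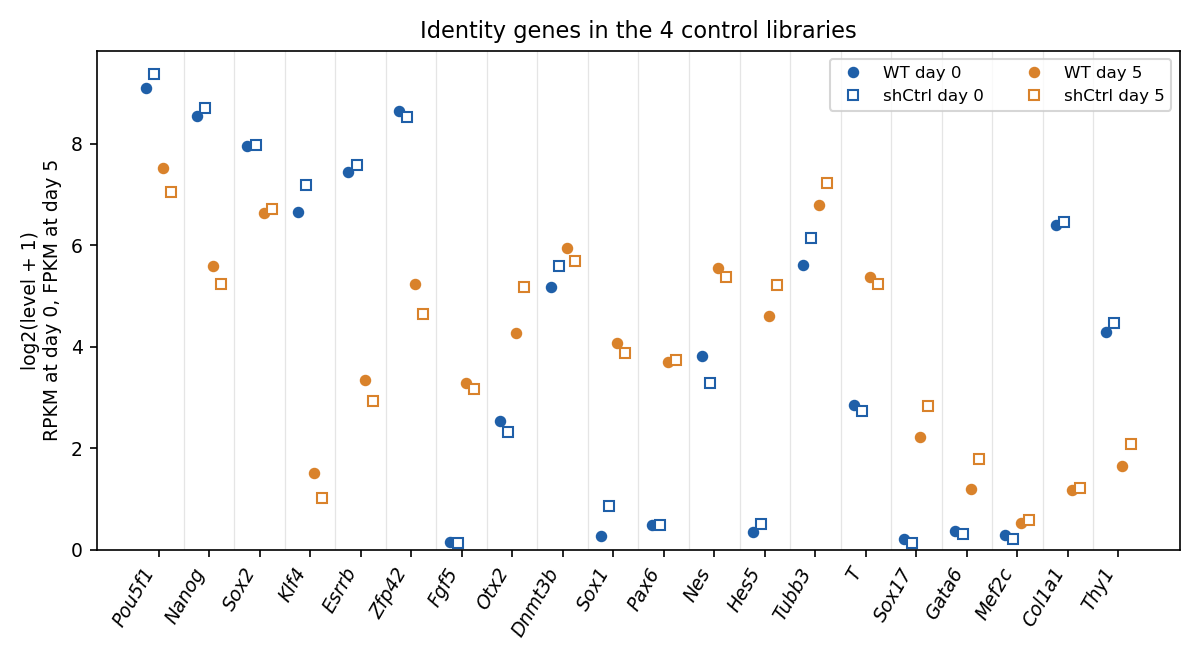
Levels of 20 identity genes in the 4 control libraries, as log2(level + 1), with RPKM at day 0 (blue) and FPKM at day 5 (orange), circles for WT and open squares for shCtrl. The pluripotency genes at the left are lower at day 5 in both lines, the neural genes in the middle are higher, and Mef2c stays near 0.

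Naive pluripotency genes made up the list with the lowest median. Of 25 measured, 22 fell in both lines, against 8.15% of all genes, none rose, and the medians were -2.59 and -3.47. Among the deepest falls were those of factors of the naive state itself. Klf4, one of the reprogramming factors, went from 99.4 and 145 RPKM to 1.85 and 1.02 FPKM, and Tbx3, a T-box factor, from 60.1 and 85.9 to 0.86 and 0.85. Tfcp2l1 went from 52.8 and 68.5 to 1.61 and 1.36, and the orphan nuclear receptor gene Esrrb from 174 and 189 to 9.22 and 6.68. Pou5f1 and Sox2, which the formative epiblast still uses, fell less than the list medians, and Nanog did not. Pou5f1 went from 542 and 659 RPKM to 182 and 131 FPKM, with log2 ratios of -1.57 and -2.32. Sox2, which neural progenitors also express, went from 247 and 252 to 98.4 and 103 (-1.32 and -1.28), while Nanog went from 370 and 416 to 47.0 and 36.7 (-2.95 and -3.47). Utf1 (-0.47 and -1.69), Dppa5a (-0.97 and -1.90) and Dppa3 (-1.98 and -0.12) were the members that missed the call, each past 2-fold in a single line.

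The shCtrl line had the lower median of this list. Tdgf1, a co-receptor for Nodal, stood at 22.7 and 11.4 FPKM at day 5, Gdf3 at 12.7 and 6.23, and Dppa2 at 10.5 and 4.16. Their day 0 levels were closer, at 323 and 371, 65.7 and 88.2, and 58.4 and 68.6 RPKM.

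The promoter of Nanog is shown because the gene stands at the centre of the list and its window holds letters that Oct4 binds. It spans chr6:122707239-122707538 on the plus strand (RefSeq, GRCm38.p6), 250 bases before to 50 after the start, with the octamer letters TTTGCAT in capitals.
Nanog: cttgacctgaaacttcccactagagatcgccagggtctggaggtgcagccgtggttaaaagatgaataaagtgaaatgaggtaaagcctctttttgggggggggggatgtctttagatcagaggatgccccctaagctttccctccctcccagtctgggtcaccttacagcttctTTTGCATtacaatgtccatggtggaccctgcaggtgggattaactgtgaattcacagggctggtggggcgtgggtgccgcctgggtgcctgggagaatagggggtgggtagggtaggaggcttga
Among 13769 shared genes with a promoter in that table, the letters TTTGCAT, searched on both strands, occurred in 3.57%. In this list they occurred in 3 of 15, those of Nanog, Sox2 and Zfp42. A match of letters is not a measured binding site.

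The LIF pathway, which acts through the receptor chains Lifr and Il6st and the factor Stat3, had 7 of 12 genes lower and 1 higher. The day 0 medium held LIF, and the day 5 protocol names none. Bcl3, a Stat3 target, went from 27.2 and 29.4 RPKM to 0.11 and 0.20 FPKM. Socs3, the feedback inhibitor, went from 40.6 and 36.2 to 5.58 and 4.97, and Stat3 itself from 38.2 and 30.7 to 4.07 and 4.56. Both receptor chains fell as well, Lifr by 1.58 and 1.77 and Il6st by 1.30 and 1.12 on the log2 scale. The kinase gene Jak1 (-0.79 and -0.56) missed the call, and Jak2 rose (1.05 and 1.18).

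Genes of the formative epiblast, the state between naive pluripotency and commitment, were split. Of 16, 7 rose and 2 fell. Fgf5, the standard marker of that state, went from 0.12 and 0.10 RPKM to 8.72 and 7.95 FPKM. Otx2, which drives the exit and later marks forebrain and midbrain, went from 4.8 and 4.02 to 18.24 and 34.97. The POU factor Pou3f1 (Oct6) rose from 1.71 and 2.39 to 11.4 and 11.0, and the zinc finger gene Sall2 from 1.81 and 2.58 to 28.9 and 23.9. Car14, a carbonic anhydrase gene, went from 0.07 and 0.19 to 56.6 and 60.0 (5.75 and 5.68), but its transcript shares sequence with the neighbouring Aph1a, so the value is uncertain. Etv5 (-1.78 and -2.61) and Foxd3 (-1.22 and -2.10) fell, and the methyltransferase Dnmt3b (0.75 and 0.10) changed by less than 2-fold.

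Neural progenitor genes formed the list with the highest median, 2.89 and 2.83, and 23 of 26 rose, against 9.01% of all genes. The SoxB1 genes, which hold cells in the progenitor state, led with Sox3, from 0.74 and 0.89 RPKM to 37.0 and 36.4 FPKM. Sox1 went from 0.21 and 0.82 to 15.8 and 13.6, on 18 and 69 reads at day 0 and 1676 and 1404 at day 5. Its read share rose 72.5-fold in WT (exact 95% interval of counting error 45.7 to 123) and 16.3-fold in shCtrl (12.8 to 21). Pax6, the regulator of eye and dorsal neural tube, went from 0.41 and 0.41 to 12.0 and 12.3. Nes, an intermediate filament of progenitors, started higher, at 13.1 and 8.75 RPKM, and stood at 45.7 and 40.2 FPKM. Fabp7, a fatty acid carrier of radial glia, reached 174 and 233 FPKM from 8.69 and 7.95 RPKM, the highest day 5 level of the rising members. Vim (0.23 and 0.02) and Ncam1 (0.06 and 0.17) changed little.

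SoxC and TALE genes rose beside them. Sox4 went from 5.01 and 5.65 to 60.2 and 80.5 and Sox11 from 1.38 and 1.03 to 29.1 and 39.4, both factors of progenitors leaving the cell cycle. Meis1, a Hox cofactor, went from 0.66 and 0.54 to 26.8 and 26.1, and its relative Meis2 (3.24 and 3.13) rose too.

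Notch signalling keeps progenitors from differentiating all at once: neighbours present ligands such as Dll1, the cleaved receptor joins the DNA-binding protein Rbpj, and Hes and Hey repressors follow. Of 23 genes of the pathway, 9 rose and 2 fell. Hes5, the main neural target, went from 0.27 and 0.42 RPKM to 23.3 and 36.0 FPKM. The ligands Dll1 (2.83 and 3.15) and Dll3 (1.58 and 2.00) rose, as did the feedback inhibitor Nrarp (3.06 and 2.98) and the glycosyltransferases Lfng (2.84 and 2.76) and Mfng (2.06 and 2.10), which tune the receptor. Dtx4, a ubiquitin ligase, rose from 0.77 and 0.80 to 27.1 and 24.5. The receptors moved less. Notch1 stood at 7.44 and 7.95 RPKM and 9.42 and 8.52 FPKM, and Notch3 passed 2-fold in WT alone (1.71 and 0.83). Hes1, which ES cells also express, stood at 40.6 and 51.4 and then 30.6 and 34.7. Rbpj fell (-1.28 and -1.46), with a near-identical copy in the genome that could take its reads.

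The Hes5 promoter, at chr4:154960673-154960972 on the plus strand, is shown because its gene has the largest ratios of the pathway, with matches to the Rbpj letters GTGGGAA in capitals (2, on opposite strands).
Hes5: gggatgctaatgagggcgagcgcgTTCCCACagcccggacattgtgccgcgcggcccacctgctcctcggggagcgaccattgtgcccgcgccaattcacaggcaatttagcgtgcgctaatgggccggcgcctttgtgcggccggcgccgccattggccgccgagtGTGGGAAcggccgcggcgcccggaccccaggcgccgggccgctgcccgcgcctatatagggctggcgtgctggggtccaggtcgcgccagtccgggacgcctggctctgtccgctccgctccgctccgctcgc
These letters occurred in 6.23% of all 13769 promoters and in 3 of 18 of the list (Hes5, Lfng and Hey2).

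Genes of neurons in formation were higher in both lines. Of 40 proneural and neuronal genes 29 rose and 1 fell, with medians of 1.5 and 2.07. The proneural factors, which commit progenitors, came from near 0: Neurog2 went from 0.02 and 0.04 RPKM to 3.03 and 4.74 FPKM, and Insm1 from 0.06 and 0.10 to 9.51 and 12.0. Neurod4 had no reads at day 0 in either line and 12.5 and 14.6 FPKM at day 5, at least 295-fold and 343-fold higher when day 0 is set at 3 reads per library. Genes of young neurons followed, with Dcx, a microtubule protein of migrating neurons, at 0.02 and 0 and then 3.63 and 7.09, and the RNA-binding protein gene Elavl4 at 1.04 and 0.58 and then 12.1 and 18.2. The neurofilament genes parted: Nefm (3.34 and 4.10) and Nefl (2.16 and 3.23) rose, while Nefh fell from 15.9 and 11.8 to 1.20 and 0.73. Tubb3, the usual neuronal tubulin marker, was already at 48.1 and 69.7 RPKM in day 0 cultures and reached 109 and 148 FPKM (1.16 and 1.08). Stmn2 (-0.57 and -0.69), another neuronal marker, was high at both days, at 111 and 138 RPKM and then 74.3 and 85.5 FPKM.

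At day 5 each of these neuronal genes except Nefh stood higher in shCtrl, whereas progenitor genes of the same libraries lay on both sides. Isl1, a factor of motor and sensory neurons, stood at 7.35 and 13.6 FPKM, and Nhlh2 at 5.43 and 13.1. At day 0 they had stood at 0.17 and 0.13 and at 0.01 and 0.03 RPKM.

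Most genes of working synapses were not called. Of 24, 9 stayed under 1 in all 4 libraries. In all, 4 rose and 3 fell, 16.7% and 12.5% of the list against 9.01% and 8.15% of all genes. Those that rose belong to vesicles and release: Syp, of synaptic vesicles, went from 0.19 and 0.39 to 5.44 and 7.21, and Snap25, of the fusion machinery, from 0.13 and 0.14 to 2.34 and 4.65. Of the listed glutamate receptor subunits, Gria1 stood at 0.09 at most and Grin2b at 0.06. Grik5, another subunit, outside the list and chosen after its values were seen, rose from 2.41 and 3.04 to 14.1 and 18.0. Grin2a, chosen likewise, rose from 0.03 and 0.06 to 2.72 and 2.41. Grin1 (-2.51 and -1.2), Gad1 (-1.95 and -1.04) and Syn1 (-1.40 and -1.11) fell.

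Among regulators of splicing, Ptbp2, the neural polypyrimidine tract protein, rose from 7.05 and 7.87 to 60.3 and 68.0, and its ubiquitous relative Ptbp1 stood at 338 and 356 and then 214 and 170 (-0.65 and -1.06). Mbnl1 had the largest ratio of the list (4.09 and 3.94), but the gene length behind its value differed between the tables, at day 5 0.40 times that of day 0, so its ratio is uncertain. The epithelial splicing factors parted, with Esrp1 higher (2.84 and 2.30) and Rbm47 lower (-1.57 and -1.39). In all, 3 of 15 rose and 1 fell, 20.0% and 6.67% of the list against 9.01% and 8.15% of all genes.

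**Figure D3:**
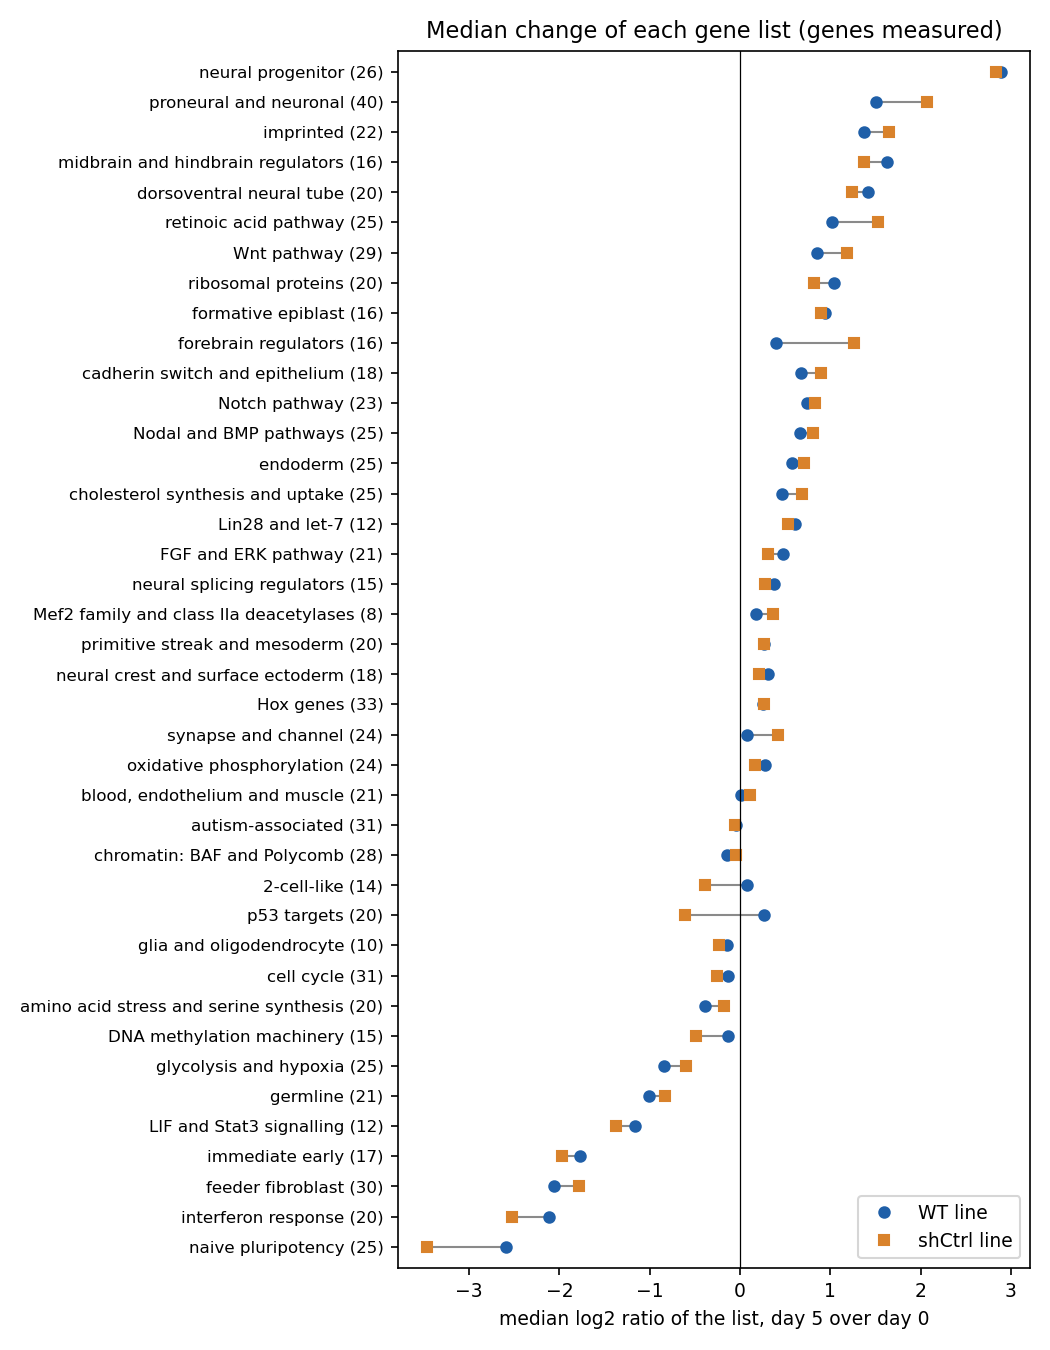
Median centred log2 ratio of day 5 over day 0 for each of 40 gene lists, in WT (circles) and shCtrl (squares), with the number of genes measured in brackets. Neural progenitor genes stand highest at 2.89 and 2.83 and naive pluripotency genes lowest at -2.59 and -3.47, and the list of p53 targets lies on opposite sides of 0 in the lines (0.27 and -0.61).

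The position of these cells along the head-to-tail axis was read from Hox genes, whose members are used in order of their paralogue number from hindbrain to tail. Of the 33 Hox genes listed 5 rose and none fell, and all 5 have paralogue numbers 1 to 3. Hoxc13, which is not in the list and was chosen after its values were seen, fell from 1.10 and 2.92 RPKM to 0.03 and 0.05 FPKM (-1.03 and -1.90). Hoxb2 went from 0.34 and 0.27 RPKM to 49.3 and 35.6 FPKM, Hoxb3 from 0.17 and 0.17 to 24.8 and 23.9, Hoxa2 from 0.05 and 0.05 to 19.6 and 11.7, Hoxb1 from 0.18 and 0.05 to 17.6 and 12.4, and Hoxa3 from 0.09 and 0.11 to 3.49 and 2.45. These are genes of the hindbrain segments. From paralogue 4 onwards the highest listed day 5 levels were those of Hoxb9 (1.98 and 2.94 FPKM, from 3.37 and 4.8 RPKM), Hoxb4 (1.21 and 2.27) and Hoxb8 (1.23 and 2.23), and 20 of the 33 genes stayed under 1 in all 4 libraries. Within the first 3 paralogue groups Hoxd1 (0.25 and 0.07) and Hoxd3 (0.71 and 1.45) were not called. Transcripts of Hoxb2 and Hoxb3os share sequence, and the sources used here do not say whether reads were counted by strand.

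**Figure D4:**
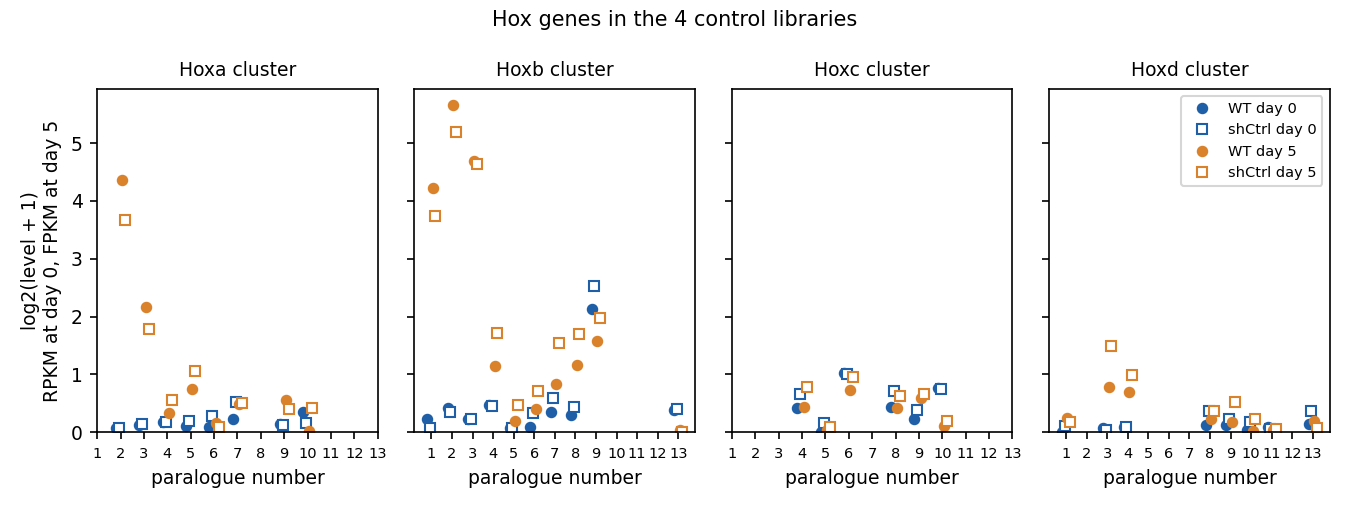
Levels of listed Hox genes by paralogue number, in 1 panel per cluster, as log2(level + 1) with RPKM at day 0 (blue) and FPKM at day 5 (orange), circles for WT and open squares for shCtrl. At day 5 the points above 2 on this axis are those of Hoxa2, Hoxa3 (WT), Hoxb1, Hoxb2 and Hoxb3.

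Other genes of midbrain and hindbrain rose with them, 9 of 16, and 1 fell. Nr2f1, a nuclear receptor of neural patterning, had the largest ratios of that list, from 0.65 and 0.61 to 42.0 and 35.1. Phox2a, a factor of hindbrain motor neurons, went from 1.71 and 1.03 to 8.42 and 7.71. The Irx genes Irx3, Irx5 and Irx2 reached 21.02 and 25.17, 10.56 and 11.85, and 14.02 and 10.14 FPKM. At the midbrain to hindbrain border, the signal genes Fgf8 (2.38 and 1.53) and Wnt1 (1.07 and 2.04) and the homeobox gene En2 (1.84 and 1.22) rose, while Gbx2 (0.38 and -0.52) did not pass 2-fold. Egr2, a gene of hindbrain segments that also belongs to the immediate early genes, fell from 9.87 and 10.1 to 2.55 and 1.03.

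Forebrain regulators were scarcer. Of 16, 4 rose, none fell and 5 stayed under 1 in all 4 libraries. Pou3f3, which is also used outside the forebrain, reached 15.7 and 17.1 FPKM, and Lhx2 3.38 and 6.12. Several stood higher in shCtrl, with Six3 at 0.51 and 1.83 FPKM, Otx1 at 1.27 and 2.76 and Nkx2-1 at 0.27 and 1.61, and the medians of the list were 0.40 and 1.26. Hesx1 was the gene of the list in which the lines went opposite ways, from 2.08 and 1.27 RPKM to 0.91 and 6.55 FPKM.

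Along the back-to-belly axis, the highest day 5 levels belonged to genes of the ventral side. Of 20 measured, 10 rose and none fell. Shh, the ventral signal, went from 0.07 and 0 RPKM to 20.3 and 28.5 FPKM, and Foxa2, which is expressed where it is made in the floor plate, from 0.09 and 0.05 to 30.4 and 37.4. Genes that answer to Shh rose with it: Nkx6-1 from 0 and 0.05 to 27.6 and 34.6, Nkx6-2 from 3.71 and 5.22 to 54.2 and 68.0, Nkx2-2 from 0 and 0.05 to 8.24 and 12.1, and the receptor gene Ptch1 from 19.5 and 17.0 to 47.8 and 54.4. Gli1, a target of the same pathway, changed by less than 2-fold (0.65 and 0.37), and Olig2, of motor neuron progenitors, rose to 1.30 and 2.48 FPKM (1.15 and 1.64). Among dorsal genes Pax3 rose to 3.86 and 2.82 FPKM, while Pax7 stood at 2.14 and 1.13, Msx1 at 1.98 and 1.46, and Atoh1 at most 0.09 at either day. Dbx1, of the intermediate neural tube, was among the genes of the day 5 files that the day 0 table does not list, and stood at 13.3 and 15.7 FPKM.

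Retinoic acid is the signal that turns on anterior Hox genes, and its pathway held the highest levels among the signalling lists at day 5. Of 25 genes, 11 rose and 1 fell. Crabp1 and Crabp2, which carry retinoic acid inside cells, went from 29.6 and 22.4 RPKM to 1634 and 850 FPKM and from 6.81 and 7.83 to 464 and 333. Crabp1 alone made up most of the list's summed day 5 level of 2320 and 1450 FPKM. The 3 enzymes that break retinoic acid down rose together: Cyp26b1 went from 0.18 and 0.21 to 19.6 and 21.2, Cyp26a1 from 0.16 and 0.19 to 8.67 and 33.3, and Cyp26c1 from 0.03 and 0.12 to 8.08 and 6.09. The enzymes that make it stayed low, with Aldh1a2 at 0.51 and 1.70 FPKM, Aldh1a1 at 0.31 and 0.31 and Aldh1a3 at 0.09 and 0.08. Of the receptors, Rarg fell from 42.1 and 66.3 to 12.2 and 10.3, Rara stood at 23.4 and 15.4 and then 12.8 and 13.5, and Rarb, itself a target, went from 0.21 and 0.25 to 1.08 and 3.56, past 2-fold in shCtrl alone. Stra8, a retinoic acid target of germ cells, pointed down (-2.75 and -0.94).

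Cyp26a1 and Rarb are shown for a direct repeat of letters that retinoic acid receptors bind, with GTTCANNNNNAGTTCA, searched on both strands, in capitals. Cyp26a1 lies at chr19:37697558-37697857 on the plus strand and Rarb at chr14:16575427-16575726 on the minus strand.
Cyp26a1: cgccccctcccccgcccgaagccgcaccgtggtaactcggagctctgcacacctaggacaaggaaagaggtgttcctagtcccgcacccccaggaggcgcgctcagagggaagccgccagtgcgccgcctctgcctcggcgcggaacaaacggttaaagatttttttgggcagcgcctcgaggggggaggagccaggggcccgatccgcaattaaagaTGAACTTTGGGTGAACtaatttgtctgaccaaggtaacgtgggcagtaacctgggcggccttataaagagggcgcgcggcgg
Rarb: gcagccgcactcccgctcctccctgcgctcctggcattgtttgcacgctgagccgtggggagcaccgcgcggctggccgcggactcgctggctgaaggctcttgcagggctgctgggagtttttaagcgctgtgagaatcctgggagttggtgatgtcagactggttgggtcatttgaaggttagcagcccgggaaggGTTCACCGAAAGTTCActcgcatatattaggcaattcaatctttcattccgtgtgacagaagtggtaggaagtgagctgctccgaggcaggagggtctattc
The repeat occurred in 3 of 13769 promoters (0.0218%), and 2 of those 3 belonged to these genes of the list. Both stood higher in shCtrl than in WT at day 5, by level. The letters searched are 1 fixed spelling of the repeat, and that choice limits which promoters can match. No enrichment is therefore read from these counts. Among 1189 promoters of higher genes, 1 held the repeat.

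Wnt signals pattern the neural tube from its dorsal side and its tail. Of 29 pathway genes 14 rose and 3 fell. The Frizzled receptors Fzd3 (2.99 and 3.31), Fzd2 (2.48 and 3.60), Fzd7 (1.95 and 1.78) and Fzd1 (1.79 and 2.09) rose, and Fzd5 fell (-2.10 and -1.05). Secreted inhibitors rose too: Sfrp2 went from 7.86 and 8.33 RPKM to 99.1 and 74.8 FPKM, Sfrp1 from 16.2 and 23.3 to 81.1 and 70.4, and Dkk1 from 0.46 and 0.34 to 11.0 and 21.8. Of the ligands, Wnt8a reached 9.98 and 6.54 FPKM, Wnt7a 4.20 and 4.84 and Wnt5b 4.97 and 4.55. The DNA-binding factors exchanged, with Tcf7l1, the repressor of ES cells, lower (-1.23 and -1.19) and Lef1 higher (2.23 and 1.61), while the target Axin2 pointed down (-0.77 and -0.30).

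Nodal and BMP genes moved both ways, 9 of 25 up and 6 down. Components of the Nodal loop fell: Lefty2, its inhibitor and target, went from 188 and 166 to 12.3 and 6.99, and Tdgf1 from 323 and 371 to 22.7 and 11.4. Lefty1 (0.47 and -1.03) and Nodal (-0.92 and -2.61) were not called. Bmp4 fell (-1.90 and -2.44), and the secreted BMP inhibitors Chrd (2.16 and 2.38), Nog (1.59 and 1.72) and Fst (2.92 and 1.90) rose. The Id genes, which are BMP targets and also respond to Notch, rose at the same time, Id2 to 49.8 and 61.7 FPKM, Id1 to 36.9 and 49.4 and Id3 to 90.4 and 111. Another secreted BMP inhibitor, Grem1, fell (-3.36 and -3.39).

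In the FGF pathway Fgf4, the ES cell ligand, fell from 60.9 and 52.3 to 5.87 and 5.59, while Fgf5, Fgf8 and Fgf15, the last at 43.0 and 29.4 FPKM from 4.33 and 3.42 RPKM, rose. The receptor Fgfr3, of ventricular progenitors, rose (2.60 and 2.46) and Fgfr1 held its level (24.5 and 32.6, then 30.4 and 31.4). Of 21 genes, 5 rose and 4 fell. Responses to ERK signalling were mixed, with Dusp4 higher (1.32 and 1.45), Etv5 lower and Spry2 (-0.31 and -1.19) uncalled.

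Markers of other lineages were present at low to moderate levels. T (Brachyury), of the primitive streak and the notochord, went from 6.25 and 5.63 RPKM to 40.5 and 36.6 FPKM, while its partners in mesoderm stayed low, with Tbx6 at 0.45 and 0.39 and Mesp1 at 0.11 and 0.30. Gsc, of the organiser, reached 4.83 and 6.41. Of 20 streak and mesoderm genes 3 rose, T, Gsc and Isl1, and Cdx1 fell (-1.84 and -3.74). These are 15.0% and 5.0% of the list, against 9.01% and 8.15% of all genes. Among endoderm genes 5 of 25 rose and 2 fell, Sparc (-1.65 and -1.52) and Trf (-1.58 and -1.70). Those are 20.0% and 8.0% of the list, the latter near the share of all genes. Cer1, a secreted inhibitor of the anterior endoderm, reached 12.6 and 13.3 FPKM from 0.09 and 0.02 RPKM, Foxa1 7.43 and 12.2, and Sox17 3.66 and 6.17. Foxa2 belongs to both endoderm and floor plate, so its rise is counted in both lists.

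The lines stood apart in several visceral endoderm genes. Apoa1 stood at 3.00 and 22.1 FPKM at day 5, Rbp4, the carrier of retinol in blood, at 3.16 and 30.2, and Ttr at 0.51 and 3.97, while Afp, the defining marker, stayed at 0.30 and 0.36. Together the 4 visceral endoderm markers Afp, Ttr, Apoa1 and Sox17 summed to 7.47 and 32.6 FPKM, from 0.28 and 0.31 RPKM. The embryonic globin gene Hba-x went with them, at 0.95 and 11.1 FPKM. Epithelial keratins showed the same order: Krt8 reached 74.2 and 180 FPKM and Krt18 80.0 and 224, from 11.1 and 8.83 and from 9.94 and 6.38 RPKM. Krt8 and Krt18 belong to the neural crest and surface ectoderm list, whose summed level went from 72.6 and 60.9 RPKM to 179 and 434 FPKM. Its other members included Sox10 at 0.54 and 0.48, Tfap2a at 0.47 and 0.61 and Krt14 at 0.07 and 0.04 FPKM. Of the 18 genes of that list 4 rose and 2 fell, 22.2% and 11.1%. No gene of the blood, endothelium and muscle list (21) rose in both lines and 2 fell, 9.52% against 8.15% of all genes. Glial genes had not appeared, with 0 of 10 higher and Gfap lower (-1.51 and -1.58).

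Feeder fibroblast genes fell, 20 of 30 with 3 higher. Col1a1, the main collagen of fibroblasts, went from 83.6 and 86.5 RPKM to 1.27 and 1.32 FPKM, and Lox, which crosslinks collagen, from 51.6 and 51.5 to 0.13 and 0.04. The chemokine gene Ccl2 went from 36.9 and 46.1 to 0.05 and 0.11. Among the markers, Thy1 fell from 18.6 and 21.1 to 2.14 and 3.25 and Dcn from 9.44 and 8.87 to 3.06 and 2.80. Mmp2 (1.20 and 1.17), Twist1 (1.13 and 1.36) and Prrx2 (1.28 and 1.25) rose, and which cells expressed them was not tested.

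2 further lists fell with the feeder markers. Of 20 interferon response genes 18 fell and none rose, with medians of -2.12 and -2.53. Oas1a, a sensor enzyme of viral RNA with a near-identical copy, went from 84.0 and 54.9 to 2.37 and 1.34, Isg15, a ubiquitin-like modifier, from 31.7 and 24.3 to 0.77 and 0.56, and Irf7, the factor that amplifies the response, from 9.57 and 10.6 to 0.07 and 0.16. The class I antigen genes B2m (-1.45 and -1.52) and H2-D1 (-1.42 and -1.13) fell less, and H2-K1 (-0.51 and 0.10) was not called. Of 17 immediate early genes, which serum and handling induce within minutes, 12 fell and none rose. Egr1, induced by ERK signalling, went from 420 and 405 RPKM to 3.17 and 3.97 FPKM, with Fos going from 75.7 and 116 to 0.84 and 1.77 and Fosb from 30.3 and 33.7 to 0.08 and 0.20. Jun itself (-0.49 and 0.09) was not called. The summed feeder markers fell from 196 and 201 to 14.8 and 19.2 between the same libraries. Macrophage markers, 12 genes chosen after the data were examined, fell as well, with 11 of 12 lower in both lines and none higher. Their summed level went from 157 and 216 RPKM to 3.78 and 3.46 FPKM, and Adgre1, which defines mouse macrophages, went from 7.46 and 10.8 to 0.01 and 0. The part of the feeder and macrophage markers in either list was not tested.

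The Isg15 promoter, at chr4:156200769-156201068 on the minus strand, is shown with the interferon-stimulated response element letters GAAANNGAAA, on both strands, in capitals, where 3 matches overlap in 1 run.
Isg15: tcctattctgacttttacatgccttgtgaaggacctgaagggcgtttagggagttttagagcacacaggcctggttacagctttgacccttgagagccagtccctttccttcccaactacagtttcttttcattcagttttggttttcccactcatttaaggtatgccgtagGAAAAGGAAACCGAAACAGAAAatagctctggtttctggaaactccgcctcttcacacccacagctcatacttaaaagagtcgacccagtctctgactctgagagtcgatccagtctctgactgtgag
Of 18 promoters of the interferon list 11 held these letters, among them those of Ifit1, Oas1a, Cxcl10 and B2m. All 13769 promoters held them in 2.98%, those of lower genes in 5.35% and those of higher genes in 2.69%.

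Among the genes listed for energy metabolism, more were called in glycolysis than in respiration. Of 25 glycolysis and hypoxia genes 8 fell, 32.0% against 8.15% of all genes, and none rose, against 9.01%. Pfkp, a subunit of the committing enzyme phosphofructokinase, went from 70.9 and 97.8 to 8.12 and 8.36, although its gene length at day 5 was 1.72 times that of day 0. The hexokinases Hk1 (-2.28 and -2.08) and Hk2 (-1.58 and -1.85) fell, and Aldoa went from 979 and 1293 RPKM to 359 and 335 FPKM. Lactate dehydrogenase Ldha (-0.02 and -0.60) and Pgk1 (0.26 and -0.01) did not pass 2-fold. Oxidative phosphorylation genes were mostly not called, with 1 of 24 higher (Ndufa1, 2.01 and 1.90) and 1 lower (Cycs, with a near-identical copy). Each is 4.17% of the list, below the shares of all genes, but these shares depend on the genes listed. Grouped by the letters of their symbols, 5 of 14 Ndufa genes (35.7%) and 3 of 10 Ndufb genes (30.0%) rose and none fell. Their medians were 1.06 and 0.72 for Ndufa and 0.89 and 0.87 for Ndufb. In cholesterol synthesis and uptake 4 of 25 rose and 1 fell (Abca1, -1.45 and -1.58), with Idi1 from 9.18 and 8.45 to 52.1 and 60.2, and 20 of 25 pointed up in both lines. Among genes of amino acid supply, Asns, which makes asparagine, fell from 245 and 226 to 57.0 and 75.4, and Phgdh, the entry enzyme of serine synthesis, rose from 54.4 and 56.3 to 173 and 171, with near-identical copies in the genome. In that list 5 of 20 genes fell and 1 rose, 25.0% and 5.0%.

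Most cell cycle genes were not called. Of 31, 4 rose and 1 fell, 12.9% and 3.23% of the list against 9.01% and 8.15% of all genes. Mki67, of dividing cells, stood at 40.5 and 46.2 RPKM and 44.6 and 49.7 FPKM. The cyclins exchanged: Ccne1, which ES cells use for their short first gap phase, fell from 156 and 144 to 62.8 and 45.0, and Ccnd2, of neural progenitors, rose from 10.8 and 11.3 to 77.7 and 67.3. Cdkn1c, an imprinted inhibitor of the cycle, rose from 4.87 and 8.91 to 88.2 and 127. In the Lin28 and let-7 list, Hmga2 (2.92 and 2.75), Lin28b (1.67 and 2.20) and Igf2bp3 (1.66 and 1.52) rose, 3 of 12 with none lower, while Lin28a held at 71.9 and 64.7 and then 104 and 92.5.

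Imprinted genes, expressed from a single parental copy, had medians of 1.37 and 1.65. Of 22 measured, 11 rose and 2 fell. Ndn went from 5.57 and 6.85 to 80.1 and 92.4, Nnat from 2.20 and 1.32 to 22.5 and 34.5, Mest from 26.6 and 36.0 to 306 and 175, and Igf2, the embryonic growth factor, from 13.9 and 12.3 to 56.9 and 195. Phlda2, a placental growth inhibitor, fell from 60.5 and 66.2 to 13.5 and 12.5. Grb10, which restrains insulin signalling, was far apart in the lines, from 5.94 and 15.6 RPKM to 96.8 and 24.7 FPKM.

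DNA demethylation genes of the naive state fell. Tet1 went from 45.2 and 45.6 to 4.68 and 3.34 and Tet2 from 24.7 and 26.5 to 3.45 and 3.59, while Tet3 rose from 0.74 and 0.78 to 6.31 and 6.52. Dnmt1 (-0.18 and -0.49) was not called. Of 15 genes of the list 4 fell and 1 rose. Germline genes that ES cells express at low levels fell in 8 of 21 and rose in none, with Ddx4, a germ cell helicase, going from 6.36 and 4.54 to 0.91 and 1.08. In the list of 2-cell-like genes, which mark a rare state of ES cells, 1 of 14 rose, Gm4340, a gene with near-identical copies, and none fell. Among chromatin complexes, the Polycomb protein genes Cbx7 (-1.48 and -1.42), Jarid2 (-1.32 and -1.37) and Suz12 (-2.30 and -1.07) fell and Bmi1 (2.26 and 1.87), Ring1 (1.94 and 1.83) and Cbx2 (1.30 and 1.24) rose. In the BAF remodelling complex Smarca2 rose (1.95 and 2.24) and Smarca4, the ATPase of ES cells, did not pass 2-fold (-0.38 and -0.48), and Actl6b, of the neuronal complex, was at 0 at day 0 and 0.60 and 0.97 FPKM at day 5. The whole list counted 6 of 28 higher and 3 lower, 21.4% and 10.7%.

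Among cadherins and junction genes, Cdh2 (N-cadherin) rose from 6.75 and 5.79 to 48.6 and 42.3, and Cdh1 (E-cadherin) stood at 92.7 and 87.3 and then 33.0 and 44.9 (-1.46 and -0.94), past 2-fold in WT alone. The claudin genes Cldn6 (3.27 and 3.13) and Cldn7 (1.88 and 3.20), of tight junctions, rose, and Snai1 (-1.06 and -1.2) fell. In this list 7 of 18 rose and 2 fell.

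Mef2c, the gene the study silenced in another line, was scarce in both control lines. It stood at 0.23 and 0.16 RPKM at day 0, on 29 and 20 reads, and at 0.45 and 0.50 FPKM at day 5, on 77 and 82 reads. Its share of reads was 2.07-fold higher in WT (exact 95% interval of counting error 1.33 to 3.29) and 3.28-fold higher in shCtrl (1.99 to 5.64). With 1 added to each level the log2 ratios were 0.24 and 0.37, so the gene was not called. Of its family, Mef2a (0.12 and 0.35) and Mef2d (-0.85 and -0.67) stood above it at day 5, at 5.57 and 6.76 and at 6.28 and 6.47 FPKM. Hdac9, a class IIa deacetylase that binds Mef2 proteins, rose (1.56 and 1.23), the 1 member of 8 in that list to be called. Of 31 autism-associated genes 3 rose and 5 fell, 9.68% and 16.1% of the list against 9.01% and 8.15% of all genes. Of the 31, 1 has a near-identical copy. Adnp, which has such a copy, fell from 40.8 and 44.5 RPKM to 7.55 and 7.80 FPKM. Dpm1-adnp, a feature listed at day 5 alone, stood at 24.0 and 29.5 FPKM. The ratio of Adnp is therefore uncertain, and how reads were divided between the 2 was not tested. The autism-associated genes that rose included Ank2 (1.39 and 1.41) and Auts2 (1.10 and 1.00). Those that fell included Kdm5b, a histone demethylase, from 98.1 and 95.9 to 30.2 and 30.5.

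The highest ratios, in no order and leaving out unnamed and predicted genes, included those of the histone gene Hist1h2ad, Mthfd2l, Car14, Car4, Crabp2, Crabp1, Hoxb2, Foxa2, Nkx6-1, Vtn, Ly6h, Tcte3, Nr2f1 and Lrrn1. Car4, a carbonic anhydrase of the cell surface, went from 0.82 and 0.75 RPKM to 81.5 and 137 FPKM. Vtn, the adhesion protein vitronectin, had no reads at day 0 and stood at 24.7 and 31.3 FPKM, at least 303-fold and 382-fold higher against 3 reads per library. The lowest belonged to Kpna2, Egr1, Rpl31-ps12, Lyz2, Klf4, Lox, Arhgap15, Rpl10a, Fos, Tbx3, Ccl2, Col1a1, Bgn, Xaf1 and Fosb. Lyz2, a lysozyme of macrophages, stood at 68.8 and 92.0 RPKM and was not listed at day 5. In no order, the genes with the highest day 5 levels included Eef1a1, Rpl41, Rplp1, Rps12, Ppia, Rpl23a, Rpl32, Rpl12 and Rpl13a, and the 10 highest at day 0 were Eef1a1, Gapdh, Npm1, Ppia, Hspa8, Ptma, Hsp90ab1, Rps2, Rpl23a and Hsp90aa1.

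Several of these extremes share sequence with other genes, and the tables may have divided such reads differently. A near-identical copy, meaning another annotated gene whose transcript matches at least 25% of the length at 95% identity or more, was found for 11.0% of all genes, 11.9% of higher and 12.2% of lower genes. For ratios past 16-fold it was found for 18.8% of 32 higher and 31.7% of 41 lower genes. Hist1h2ad (0 and 1.56 RPKM, then 1256 and 1020 FPKM) has 9 such copies, Kpna2 (321 and 264, then 1.20 and 2.49) 3 and Rpl10a (798 and 928, then 17.2 and 20.8) 1. Mthfd2l has none, but its gene length differed 3.75-fold between the tables. Among other genes named here, Tdgf1, Dppa2, Dppa3, Dppa5a, Etv5, Lef1, Sox4, Nefl, Syp, Ptbp1, Gbx2, Hoxb2, Rarb, Fgf15, Krt8, Trf, Isg15, Mest, Igf2, Igf2bp3, Bmi1 and Pgk1 have such copies as well. Of 20 ribosomal protein genes 17 have copies, and 7 rose and 3 fell, so no direction is given for them.

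Targets of the tumour suppressor p53 differed between the lines in direction. The list of 20 genes had a median of 0.27 in WT and -0.61 in shCtrl. In 18 of them the shCtrl ratio was the lower, with Rrm2b (-0.49 and 0.09) and Sesn1 (-0.16 and 0.13) the exceptions. Several members stood higher in shCtrl than in WT at day 0 and lower at day 5. Phlda3 stood at 15.8 and 40.3 RPKM at day 0 and 33.6 and 22.4 FPKM at day 5, and Bbc3, a killer of damaged cells, at 5.63 and 15.2 and then 14.7 and 11.5. Eda2r stood at 7.27 and 15.6 and then 16.5 and 10.8, and Cdkn1a, the cycle inhibitor p21, at 78.7 and 96.6 and then 52.5 and 29.7. Trp53 itself fell alike in both, from 380 and 309 to 106 and 83.0, and Mdm2, its inhibitor and target, fell too (-1.06 and -1.97). Ddit4 rose in both (1.43 and 1.32).

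**Figure D5:**
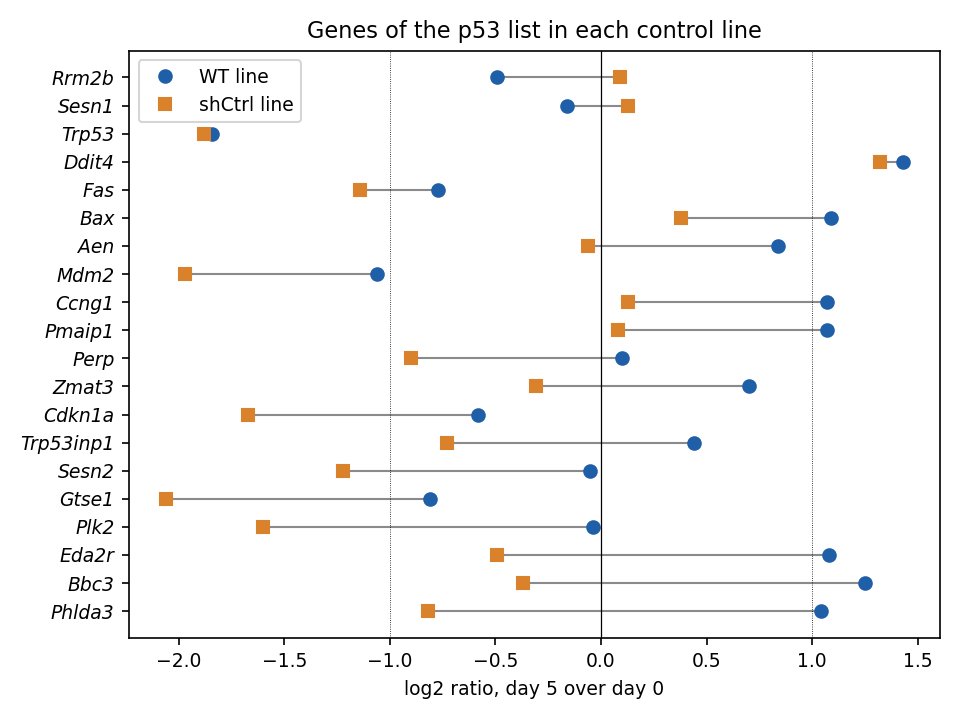
Centred log2 ratio of day 5 over day 0 for each of the 20 genes of the p53 list in WT (circles) and shCtrl (squares), ordered by the difference between the lines, with dotted lines at 2-fold. Phlda3, Bbc3 and Eda2r at the bottom lie right of 0 in WT and left of 0 in shCtrl, while Trp53 and Ddit4 nearly coincide.

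By the difference of the lines over all genes with a proper name, those with a higher ratio in shCtrl were Rbp4 (0.75 and 3.96), Hba-x (0.74 and 3.59), Usp26 (-2.29 and 0.56), Hist1h4m (-1.71 and 0.86) and Apoa1 (1.86 and 4.39). Those with a lower ratio were Grb10 (3.82 and 0.64), Hist1h4n (0.63 and -2.05), Mup6 (1.91 and -0.52), Zbed5 (-1.10 and -3.51) and Ddit4l (1.75 and -0.42). In all, 422 genes differed by 1 or more on the log2 scale.

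The genes called in the control lines were then read in the perturbed lines, each against its own day 0. Of the 1564 higher genes, 903 were also 2-fold higher in LincNDIME_KO and 798 in shMef2c, with median log2 ratios of 1.13 and 1.02 against 1.59 in WT and 1.70 in shCtrl. Of the 1415 lower genes, 885 and 890 were also 2-fold lower, with medians of -1.23 and -1.21 against -1.6 and -1.64. Since the genes were chosen by their ratios in the control lines, the larger medians there are fixed in part by that choice. The share of all genes past 2-fold in each perturbed line is not given here. The counts, and their difference between those lines, therefore have no background to be read against.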

How the data were processed

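Polyadenylated RNA of 8 libraries was sequenced, and 4 were compared here, WT and shCtrl at day 0 and day 5. The day 5 files that the authors deposited give expected counts and FPKM per gene, as their headers say. They stop at 0.01 FPKM, and a gene missing from one was set to 0. The authors' day 0 table holds RPKM and estimated counts, per the file headers. The submitters' processing notes name mm9, HISAT, HISAT2, Bowtie, Bowtie2 and RSEM, with no versions or roles. The deposited comparison tables between lines were not used.

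Genes were matched by identifier. Of 3706 features found in the day 5 files alone, 1469 were predicted by the authors. Ratios were log2 of level plus 1, centred per line. Called genes passed 2-fold in both lines. The calling code was tested on simulated counts. Reads give intervals of counting error only (exact, 95%). Near-identical copies came from minimap2 2.31-r1302 on GENCODE M21 transcripts, with limits chosen after values were seen. Promoters are RefSeq windows of the first start listed per gene, on GRCm38.p6, while the notes name mm9, so the windows carry no measurement. Python 3.11.15, edgeR 4.0.16 and DESeq2 1.42.0 were used, the latter pair for scaling factors of rounded counts.

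The 40 gene lists and the genes named were chosen with earlier results of these data known. Named were the 15 highest and 15 lowest called genes by the smaller of the 2 ratios, up to 4 called genes of each list each way with members whose role is explained, the 5 genes each way that differ most between lines, 21 identity genes and the 10 highest levels per day; Gm, Rik, LOC, small RNA, predicted and unnamed genes were left out of the ranked parts. Some genes that this rule names are not reported here. Alternatives were another pseudocount, filters on low means, no centring, other scalings, other folds, all pairs of libraries and each line alone.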

Additional observations from a re-analysis of the deposited data

Results flagged for a closer look

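Among the genes of the lists, those named and the list medians, these are the results in which the control lines pointed opposite ways by at least 1.5-fold each, or by at least 0.1 on the log2 scale for a list. Over all genes, 18 pointed opposite ways by at least 1.5-fold in each line. With 1 library per line and day these differences were not tested. The ratio in shCtrl minus that in WT was 2.42 for Hesx1 (-0.69 in WT and 1.73 in shCtrl) and -1.86 for Phlda3 (1.04 and -0.82). It was -1.43 for the Wnt receptor gene Fzd10 (0.80 and -0.63) and 1.21 for the junction gene Marveld3 (-0.59 and 0.62). The histone genes Hist1h4n (-2.68, from 0.63 and -2.05) and Hist1h4m (2.58, from -1.71 and 0.86) are near-identical copies of each other and moved in opposite senses. The median of the p53 list differed by -0.88 (0.27 and -0.61).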

How the results depend on the processing

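Day 5 and day 0 were paired by line, since each ratio sets a line against its own day 0. No test was run on these pairs, because the tables of the days were normalised separately. The counts of genes higher at day 5 in both control lines (1564) and genes lower at day 5 in both control lines (1415) moved by more than 1.5 times under a pseudocount of 0.1 (2571 and 2373), under a mean of 5 or more (984 and 935), at 1.5-fold (3059 and 2630) and at 4-fold (384 and 350). There were 0 genes past 2-fold in opposite directions in the control lines, but 37 with a pseudocount of 0.1, 18 at 1.5-fold, 6 after rescaling to equal totals over the shared genes, and 2 and 3 on estimated counts scaled by TMM and by DESeq2 size factors. Those last 3 settings gave 1793, 2097 and 2030 higher and 1875, 1839 and 1902 lower genes. Requiring all 4 pairs of libraries left 1451 and 1314, and leaving out either line gave 1960 and 2175 higher and 1833 and 1823 lower genes. Of alternatives chosen after seeing the data, leaving out genes with a near-identical copy left 1388 and 1236, leaving out genes of unequal length 1545 and 1345, and adding genes of either table as 0 gave 1825 and 1634. No called gene among those listed changed sign under any planned setting. For each line alone this was fixed in advance, since a call needs the same direction in both lines. Leaving out the centring changed nothing, since both medians were 0, and the mean filters moved log2 ratios of genes by 0.05 at most. Among list medians, that of blood, endothelium and muscle ran from -2.155 to 0.289, that of p53 targets from -0.612 to 0.269 and that of the Hox genes from 0.251 to 4.192, the last with scarce members left out. Medians changed sign for the 2-cell-like list (0.083 in WT alone), glia (0.364 once genes with means under 1 were dropped) and BAF and Polycomb (0.008 with TMM). The cause of these moves was not tested. Tubb3, Rpl32, Rps12 and Auts2 lost the call after rescaling, and those that lost it on estimated counts under both scalings included Jak2, Rpl32, Rps12, Cbx8, Cul3 and Zbed5, with Bst2 under TMM as well.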

Other observations

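Families with at least 10 measured members, read by the letters of their symbols and chosen after their values were seen, add the following, beside 9.01% of all genes higher and 8.15% lower. Of 17 Klf genes, zinc finger factors of the naive state and of growth arrest, 8 fell and none rose. Beside Klf4, Klf2 and Klf5, these were Klf9 (44.2 and 46.5 RPKM, then 6.53 and 5.55 FPKM), Klf8 (16.1 and 13.3, then 1.92 and 1.23), Klf10, Klf3 and Klf16. Of 11 annexins, calcium-dependent membrane proteins, 5 fell and none rose, with Anxa1 going from 23.6 and 24.5 to 1.42 and 0.67. Of 15 Ccl chemokine genes 7 fell and 2 rose, and of 10 Cxcl genes 5 fell and 1 rose. Of 20 tetraspanins 8 rose and none fell, led by Tspan6 from 5.69 and 6.07 to 70.8 and 77.9. The semaphorins, guidance signals of growing axons, counted 5 of 20 higher, with Sema4c going from 0.96 and 1.19 to 14.3 and 16.1, and 1 lower (Sema4b, -1.46 and -1.52). Of 14 Timm genes, of the mitochondrial import machinery, 6 rose, and the 1 that fell, Timm8a1, has a near-identical copy.

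Genes listed at day 5 and absent from the day 0 table came to 3706, of which 261 had a named identifier and 1 FPKM or more in both control libraries. They include noncoding RNA genes of the nervous system and of imprinted clusters, with Miat at 21.1 and 25.0 FPKM, Meg3 at 18.5 and 32.9 and Rian at 15.6 and 20.4. The embryonic globin gene Hbb-bh1 stood at 3.73 and 22.3. Atp6v0c-ps2, a pseudogene, stood at 200.1 and 174 FPKM. Atp6v0c, the gene it is named after, has 2 near-identical copies and fell from 287 and 286 RPKM to 10.7 and 10.4 FPKM. The day 5 level of the pseudogene is therefore uncertain, and how reads were divided between the 2 was not tested.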
